A study of Mus musculus with 29 samples.

Results

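LSK cells are the fraction of bone marrow that carries no lineage marker and is positive for Sca-1 and Kit, and blood stem cells and their earliest progeny lie within it. Of 29 libraries in the study, 11 were made from sorted LSK cells, and those 11 are compared here by the genotype that the labels give for the niche: 6 libraries from WT niches and 5 from Wnt5a niches, in which, as known from the study, 1 copy of Wnt5a is missing. The other 18 libraries are of niche cells and were not used. The title places the LSK cells in regeneration, and asks how WNT5A from the niche relates to the expression of actin regulators in them.

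All 11 libraries share the strain label 129Ly5.1 and the Smart-seq2 protocol, and every label contains the letters Tx, read here as transplantation. The labels name no promoter, no Cre and no further allele. Age, cell number, radiation and time after transplantation were not given in the sources used here. The genotype is that of the surroundings and not of the LSK cells, so the Wnt5a transcript of these cells does not check the labels. Nothing in the labels says that libraries came from separate animals, and p-values measure the spread between these libraries, which may be technical. Label numbers have 4 digits in all 6 WT libraries and in Wnt5a replicates 1, 2 and 3, and 3 digits in Wnt5a replicates 4 and 5. What the numbers stand for is not stated.

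WNT5A is a secreted ligand of the non-canonical WNT branch, which signals through Frizzled and ROR receptors to small GTPases, the actin skeleton and calcium. In bone marrow it is made mainly by stromal cells. Blood stem cells rest most of the time, keep low mitochondrial activity and rely on autophagy and lysosomes to do so, and they leave rest to divide when they rebuild the marrow.

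Of 13098 genes tested with edgeR's quasi-likelihood test, 3 passed a Benjamini-Hochberg adjusted p under 0.05. Sephs2 and Ap2b1 fell in LSK cells from Wnt5a niches and the satellite transcript Gm10715 rose. The share of tested genes called was 0.00763% for higher and 0.0153% for lower, 0.0229% in both directions. At an unadjusted p under 0.05 the counts were 1405 higher (10.7%) and 1009 lower (7.7%). A further 74 genes, 53 higher and 21 lower, had an adjusted edgeR p between 0.05 and 0.06, and under 0.1 the counts were 209 higher (1.6%) and 110 lower (0.84%). Genes whose groups did not overlap numbered 165 higher (1.26%) and 203 lower (1.55%).

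Of the libraries left out in turn, 1 changed these counts by far the most. Without Wnt5a replicate 5, 596 genes passed as higher (4.45%) and 518 as lower (3.87%) of 13387 tested with edgeR, 1114 in all (8.32%). Leaving out any other library gave at most 13 higher and 3 lower, the counts without Wnt5a replicate 1. Replicate 5 was singled out by its own values, so the larger counts without it are not independent of that choice. Among the 596 genes higher without it, replicate 5 lay inside the WT range in 387 (64.9%) and above it in 150; among the 518 lower genes it lay inside in 319 (61.6%) and below in 121. All 3 genes called with 11 libraries were also called without it. Counts with all 11 libraries also turned on the tool and filter. They were 405 higher and 274 lower with DESeq2, 207 and 136 with no filter on low counts, and 0 and 0 with voom.

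**Figure D1:**
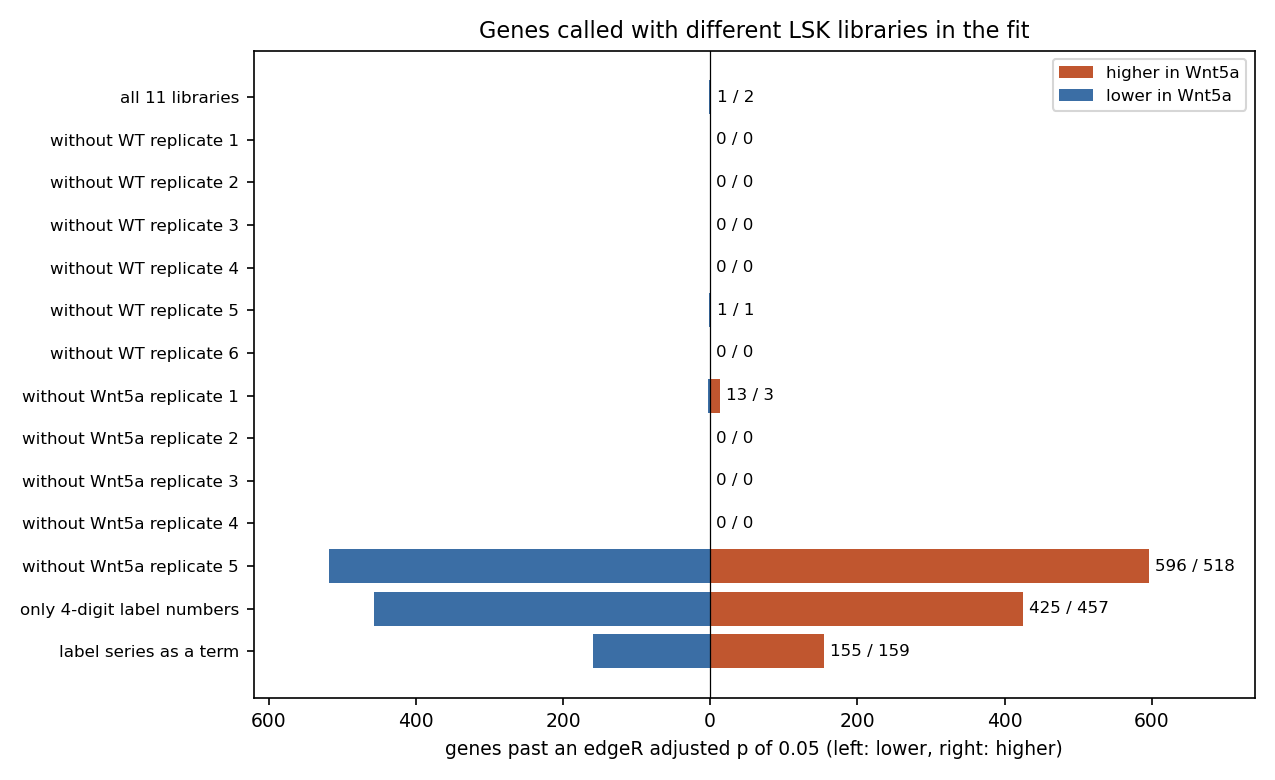
Number of genes past an edgeR adjusted p of 0.05 in LSK cells, higher in Wnt5a to the right and lower to the left, with all 11 libraries, with each library left out, within the libraries with 4-digit label numbers, and with the label series as a term. The count is 596 higher and 518 lower without Wnt5a replicate 5 and stays at or below 13 in each direction when any other single library is left out.

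Restricting the fit to the 4-digit label series, 3 Wnt5a against 6 WT libraries, gave 425 higher (3.06%) and 457 lower (3.29%) genes of 13910. All WT libraries are in that series, so the series with 3 digits gives no comparison of its own. With the series as a term and all 11 libraries, edgeR called 155 higher and 159 lower. Within the 4-digit series the log2 fold change was -3.40 for Sephs2, -1.28 for Ap2b1 and 4.85 for Gm10715, with edgeR adjusted p of 0.0109, 0.0136 and 0.000878.

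All 14 LSK markers had reads in every library and passed the low-count filter, and their summed level was 3195 to 4454 CPM (counts scaled to an equal library size, in the usual CPM unit, with TMM factors) in WT and 3341 to 4788 CPM in Wnt5a. None of the 14 passed the test, and no marker's groups were apart. Kit, the stem cell factor receptor, stood at 469, 569, 485, 569 and 514 CPM in the 5 Wnt5a libraries, against a WT low, median and high of 289, 434 and 556 CPM. Cd34, a surface sialomucin of progenitors, stood at 484, 695, 549, 686 and 539.5 CPM against 436, 681 and 735 CPM. The levels overlapped in both genes.

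Ly6a, which encodes the sort marker Sca-1, was at 161, 233, 194, 266 and 696 CPM in Wnt5a, against 244, 302 and 378 CPM in WT. Replicate 5 alone was above every WT library and the other 4 lay at or below the WT median. The log2 fold change was 0.04 (SE 0.31, edgeR adjusted p = 0.964) with all libraries and -0.50 (adjusted p = 0.101) without replicate 5. Ptprc, which encodes the pan-leukocyte antigen CD45, was at 345, 456, 390.0, 566 and 283 CPM against 254, 294 and 388 CPM (log2 fold change 0.42, SE 0.18, edgeR adjusted p = 0.244).

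Total counts ran from 1254553 to 5775459 reads in WT and from 1573560 to 3690114 in Wnt5a, with 16341 to 24603 genes detected. Intervals and floors on such reads cover counting error only. At an equal depth of 1250000 reads, 16206 to 17512 genes were detected in WT, and 20814, 17452, 18626, 15810 and 16429 in the Wnt5a libraries, so Wnt5a replicates 1 and 3 held more genes than any WT library and replicate 4 fewer. The common biological coefficient of variation was 0.448. The first principal component carried 31.4% of the variance. It placed Wnt5a replicates 1 to 4 on the negative side and the 6 WT libraries on the positive side, with replicate 5 among them.

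**Figure D2:**
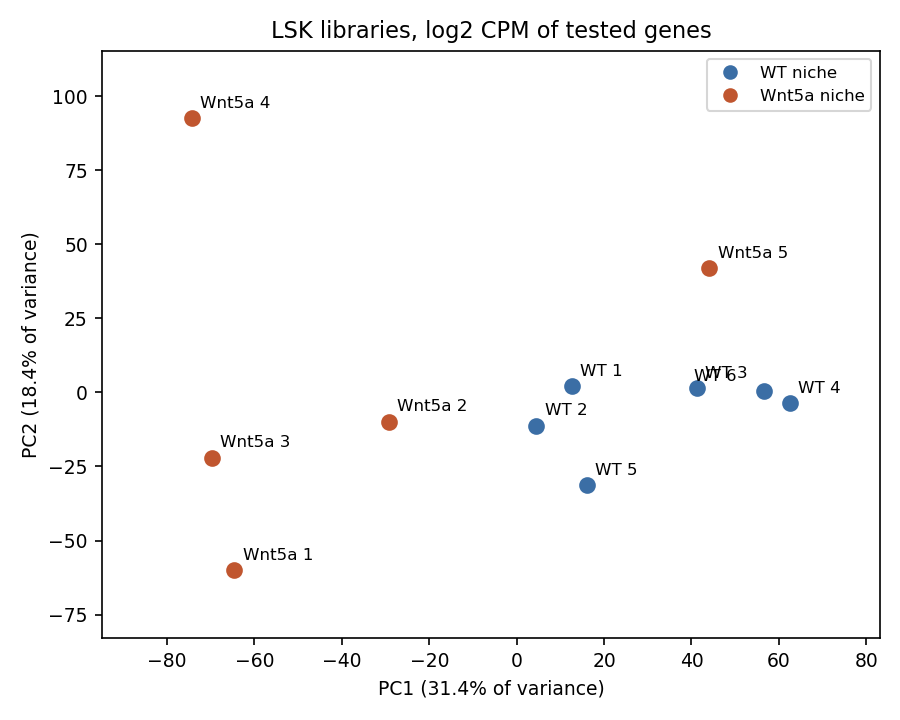
LSK libraries on the first (31.4% of variance) and second (18.4%) principal component of log2 CPM over the tested genes, coloured by niche genotype. Wnt5a replicates 1 to 4 lie to the left of every WT library and Wnt5a replicate 5 lies among the WT libraries on the horizontal axis; replicate 4 stands apart at the top.

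Transcripts on the B and plasma cell list were abundant in part of the libraries, although an LSK sort removes cells with lineage markers. The summed level of 14 B and plasma cell markers was 1763 to 10256 CPM in WT and 2209 to 7341 CPM in Wnt5a replicates 1 to 4, but 40681 CPM in replicate 5. In 5 of the 11 libraries (WT replicates 1, 3 and 6 and Wnt5a replicates 4 and 5) it exceeded the sum of the LSK markers. In Wnt5a replicate 5, Jchain, the joining chain of secreted antibodies, stood at 21136 CPM against 472 to 3682 CPM in WT, and immunoglobulin genes took 8.27% of reads against 0.262% to 2.12%. In Wnt5a replicates 1 to 4 that share was 0.264%, 0.380%, 0.488% and 0.971%. Whether this RNA has a part in the position of replicate 5 was not tested.

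For the other lists, neutrophil markers summed to 7.20 to 39.1 CPM in WT and 30.6 to 67.9 CPM in Wnt5a, T and NK cell markers to 287 to 447 and 285 to 530.2 CPM, macrophage markers to 71.6 to 145 and 48.3 to 102 CPM, and mast cell and basophil markers to 146 to 719 and 179.7 to 1078 CPM. Erythroblast markers summed to 256 to 787 CPM in WT and 295 to 1366 CPM in Wnt5a, and megakaryocyte markers to 106 to 291 and 96.9 to 251 CPM, with Tubb1 at 0 reads in every library. Endothelial markers summed to 157 to 333 CPM in WT and 102 to 175 CPM in Wnt5a, and mesenchymal markers to 34.0 to 61.6 and 36.6 to 114 CPM, with Bglap at 0 reads throughout. No member of the 9 lists of other cell types passed the test, which 0.0229% of all tested genes passed. Part of each list was not tested, and only 1 of 10 neutrophil, 4 of 12 T and NK, 2 of 7 endothelial and 3 of 10 mesenchymal markers were. Without replicate 5, 2 B and plasma, 1 T and NK and 1 endothelial marker passed as lower (background 3.87%). In that fit 1 mesenchymal marker passed as higher (background 4.45%). In such sorted bulk samples, fewer cells of a type and less RNA per cell cannot be told apart.

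Wnt5a itself (ENSMUSG00000021994, chr14:28504750-28527448 of GRCm38) was close to absent from LSK cells. The WT libraries held 0, 0, 0, 0, 1 and 1 reads of it and the Wnt5a libraries 5, 1, 3, 0 and 1. At most 5 reads of a library were from this gene, and it did not reach the test.

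Sephs2 (ENSMUSG00000049091, chr7:127271879-127274055, minus strand), which encodes the enzyme that makes selenophosphate for selenocysteine, was the gene that fell furthest among those called. Its level was 2.76, 2.0, 2.44, 0.754 and 1.76 CPM in the 5 Wnt5a libraries, from 8, 7, 4, 1 and 4 reads. In WT the low, median and high were 14.4, 17 and 57.3 CPM. Every Wnt5a library was below every WT library, and WT itself spread widely. WT averaged 25.2 ± 16.9 CPM (SD, n = 6), Wnt5a 1.95 ± 0.769 CPM (SD, n = 5), and the log2 fold change was -3.63 (SE 0.54, edgeR adjusted p = 0.0272). Across 21 alternatives the adjusted p ran from 2.83e-07 to 0.101 and passed in 9, with the log2 fold change between -3.79 and -3.14. Of its exonic bases, 792 overlap a predicted transcript on the opposite strand, Gm44729, and whether counting used strand is not given.

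Ap2b1 (ENSMUSG00000035152, chr11:83299024-83405035, plus strand), which encodes the beta subunit of the AP-2 adaptor that couples cargo to clathrin at the plasma membrane, was the other gene that fell. It stood at 27.2, 41.5, 45.2, 33.2 and 36.6 CPM in Wnt5a against 82.4, 91.1 and 102 CPM for the low, median and high of WT. The groups were narrow and well apart. WT averaged 91.6 ± 8.36 CPM (SD, n = 6), Wnt5a 36.8 ± 7.03 CPM (SD, n = 5), and the log2 fold change came to -1.32 (SE 0.21, edgeR adjusted p = 0.0451). Over 21 alternatives the log2 fold change stayed between -1.41 and -1.22, and the adjusted p, between 4.34e-07 and 0.142, passed in 9.

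The promoter windows of these genes are shown because they are the protein-coding genes that passed. Each holds the 250 bases before the RefSeq start in GRCm38.p6, 5′ to 3′ on the strand of the gene, and capitals mark a CCAAT box on either strand. The Ap2b1 window lies within the gene span given above, which begins upstream of the window at chr11:83299024.
Sephs2, chr7:127274060-127274309, minus strand: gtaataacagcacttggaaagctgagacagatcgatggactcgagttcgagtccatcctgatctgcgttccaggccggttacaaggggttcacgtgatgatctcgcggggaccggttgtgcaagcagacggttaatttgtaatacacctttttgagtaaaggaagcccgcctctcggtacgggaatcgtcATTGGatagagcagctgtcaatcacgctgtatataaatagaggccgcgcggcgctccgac
Ap2b1, chr11:83302447-83302696, plus strand: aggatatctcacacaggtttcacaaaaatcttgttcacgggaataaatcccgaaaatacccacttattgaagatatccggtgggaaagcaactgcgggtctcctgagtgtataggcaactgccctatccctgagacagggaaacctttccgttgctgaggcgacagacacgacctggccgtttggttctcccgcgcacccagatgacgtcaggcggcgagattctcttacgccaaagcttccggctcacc

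The search covered GGGCGG, the core of the GC box, and CCAAT, each on both strands, with no overlap between these motifs. The Sephs2 window held 1 CCAAT, read as ATTGG, and no GGGCGG, with 20 CpG sites and 52.0% GC. The Ap2b1 window held neither motif, with 15 CpG sites and 52.4% GC. GGGCGG was present in 32.7% of all 32851 promoter windows of that length and in 59.6% of those of tested genes, and CCAAT in 33.8% and 37.2%. Among genes whose groups did not overlap, GGGCGG was in 67.4% of the windows of 95 higher genes and 56.8% of those of 148 lower genes, and CCAAT in 33.7% and 42.6%. A match describes these letters only.

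Gm10715 (ENSMUSG00000096201, chr9:3036877-3038316) belongs to a group of predicted genes that lie in satellite repeats. It stood at 112, 26.6, 50.1, 26.4 and 5.73 CPM in Wnt5a, against 0.864, 2.08 and 4.07 CPM in WT (log2 fold change 4.35, SE 0.64, edgeR adjusted p = 0.0272). Its reads were 326, 93, 82, 35 and 13 in Wnt5a and 3, 3, 15, 3, 13 and 5 in WT. The size of the fold thus rests in part on WT libraries with at most 3 reads. Gm10715 passed in 10 of 20 alternatives, with the adjusted p between 1.25e-08 and 0.101. All 11 tested satellite transcripts had a positive log2 fold change, with a median of 3.93 and a range of 3.54 to 4.35, where 51.7% of all tested genes were positive and their median was 0.02. In 8 of the 11 the groups did not overlap, against 1.26% of all genes. Without replicate 5, 12 of 12 passed (background 4.45%). These genes are near-identical copies, and their reads cannot be assigned to 1 of them with certainty, so they are not 11 separate observations.

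As a share of reads, satellite transcripts took 6.12%, 1.63%, 2.75%, 1.16% and 0.308% of the Wnt5a libraries and 0.0759% to 0.378% of the WT libraries. Replicate 5 was the only Wnt5a library inside the WT range. The number of olfactory receptor genes with at least 1 read, of 1146 in the table, was 404, 183, 157, 33 and 50 in Wnt5a and 12 to 104 in WT. It was counted at full and not at equal depth. In WT the low of 12 came from 1254553 reads and the high of 104 from 5775459, the extremes of depth. In Wnt5a the high of 404 came from 2944396 reads, and the deepest library, with 3690114 reads, had 183. Most such genes are silent in blood cells, though 1 of them passed the low-count filter. The satellite share and the number of olfactory receptor genes with a read were both highest in Wnt5a replicate 1. The part of unspliced or genomic sequence in them was not tested. Sephs2 and Ap2b1 had an edgeR adjusted p of 0.0502 and 0.0561 when satellite, olfactory receptor and mitochondrial genome genes were left out of the fit.

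**Figure D3:**
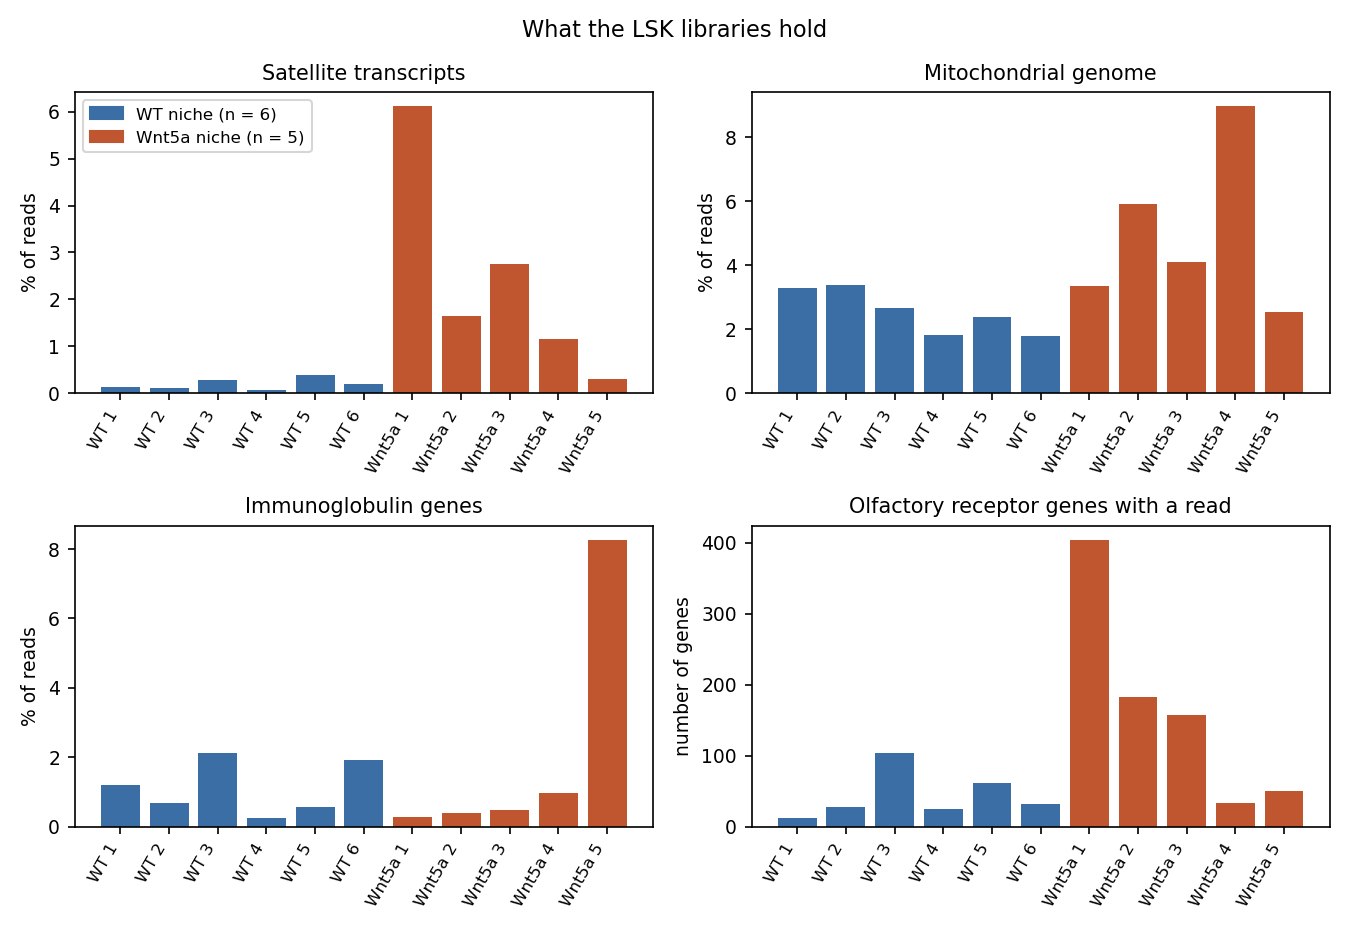
Share of reads in satellite transcripts, the mitochondrial genome and immunoglobulin genes, and number of olfactory receptor genes with a read, in each of the 11 LSK libraries. Wnt5a replicates 1 to 4 hold 1.16% to 6.12% satellite reads against at most 0.378% in WT, and Wnt5a replicate 5 holds 8.27% immunoglobulin reads.

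The 12 lower and 12 higher named protein-coding genes with the smallest p are described next. The first 2 lower ones are Sephs2 and Ap2b1, and the other 22 had an adjusted edgeR p of 0.0564, above the threshold. In the 10 other lower genes the groups did not overlap, and in the higher genes they did not overlap in 6 of 12. These genes were picked by p, so this says nothing of the rest of the genome.

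Ctsd (chr7:142375911-142388038), the lysosomal protease cathepsin D, stood at 85.2, 70.1, 93.5, 90.5 and 70.5 CPM in Wnt5a against 129.8, 162 and 177 CPM in WT (log2 fold change -0.94, SE 0.17), though 808 of its exonic bases are shared with Gm49369 on the same strand. Slc43a1, a transporter of large neutral amino acids, stood at 23.5, 17.2, 10.4, 14.3 and 18.1 CPM against 31.0, 53.2 and 66.5 CPM (-1.60, SE 0.30). Ebp, a sterol isomerase of cholesterol synthesis, stood at 28.6, 31.5, 20.2, 46.0 and 26.4 CPM against 54.4, 81.6 and 147 CPM (-1.62, SE 0.32). In these genes replicate 5 lay with the other Wnt5a libraries. Pigq, part of the enzyme that starts the GPI anchor, stood at 43.8, 52.1, 19.6, 31.7 and 52.0 CPM against 70.5, 97.9 and 120.2 CPM (-1.29, SE 0.27), and 957 of its exonic bases overlap an antisense gene. Aph1a, a subunit of gamma-secretase, which cleaves Notch, stood at 7.93, 7.73, 3.06, 5.28 and 2.64 CPM against 16.8, 20.8 and 26.9 CPM (-2.01, SE 0.42). H2-DMb2, a chain of the chaperone that loads peptide on MHC class II, stood at 4.14, 7.73, 0.611, 6.79 and 10.1 CPM against 20.0, 27.5 and 53.0 CPM (-2.36, SE 0.50). It has a close paralog, H2-DMb1, and reads may be split between them. The fold of H2-DMb2 (12, 27, 1, 9 and 23 reads in Wnt5a) rests in part on a library with 1 read.

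The remaining lower genes had at most 20 reads in a Wnt5a library. Rhno1, a partner of the checkpoint clamp that senses damaged DNA, stood at 0.690, 4.01, 0.611, 1.51 and 8.82 CPM against 13.4, 22.1 and 41.7 CPM in WT (log2 fold change -2.90, SE 0.62). Ankrd24 stood at 4.14, 1.15, 1.83, 0.754 and 5.73 CPM against 7.54, 20.0 and 30.5 CPM (-2.88, SE 0.57). Layn, a receptor for hyaluronan, had 2, 3, 1, 0 and 1 reads in Wnt5a, and 6 to 57 in WT. Cars2, the mitochondrial cysteinyl-tRNA synthetase, stood at 0, 2.58, 0, 0 and 1.76 CPM against 6.4, 12.3 and 34.0 CPM. No fold is given for Layn and Cars2, which had at most 3 reads in 5 and in 3 of the Wnt5a libraries. The folds of Rhno1 (2, 14, 1, 2 and 20 reads in Wnt5a) and Ankrd24 (12, 4, 3, 1 and 13 reads) also rest in part on libraries with at most 3 reads.

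Of the higher genes, Sp3 (chr2:72936427-72980446), a transcription factor that binds GC boxes, stood at 404, 399, 499, 542 and 337 CPM in Wnt5a against 199, 235 and 271 CPM in WT (log2 fold change 0.89, SE 0.16). Dach1 (chr14:97786853-98169765), a transcriptional cofactor, stood at 296, 369, 341, 287 and 239.8 CPM against 101, 162 and 199 CPM (0.94, SE 0.18). Trf (chr9:103204001-103230444), the iron carrier transferrin, stood at 70.0, 47.2, 45.2, 76.9 and 43.6 CPM against 14.1, 17.8 and 32.7 CPM (1.51, SE 0.29), though 2108 of its exonic bases are shared with Gm20425 on the same strand. All 5 Wnt5a libraries were above all 6 WT libraries in these genes, and replicate 5 was the lowest of the 5 in each. Lrrc58 stood at 411, 405, 459, 499 and 335 CPM against 154, 240.0 and 282 CPM (0.86, SE 0.17), though 1090 of its exonic bases are shared with a pseudogene.

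Smim27, a small membrane protein gene, stood at 139, 160.0, 196, 557 and 112 CPM against 36.6, 59.2 and 93.0 CPM (1.88, SE 0.38), and Arl5c, an ADP-ribosylation-factor-like GTPase, at 32.4, 45.5, 59.3, 145 and 24.2 CPM against 6.33, 12.8 and 20.0 CPM (2.15, SE 0.44). Both were highest in replicate 4. Smim27 shares 257 exonic bases with Ndufb6 on the other strand. Abhd2, a lipid hydrolase, stood at 298, 265, 334, 333 and 163 CPM against 107, 121 and 174 CPM (1.07, SE 0.21), and Nfatc2ip, a nuclear partner of NFAT, at 55.9, 57.3, 76.4, 53.5 and 17.6 CPM against 9.76, 13.7 and 21.4 CPM (1.76, SE 0.35). In both, replicate 5 lay inside the WT range and the other 4 above it.

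**Figure D4:**
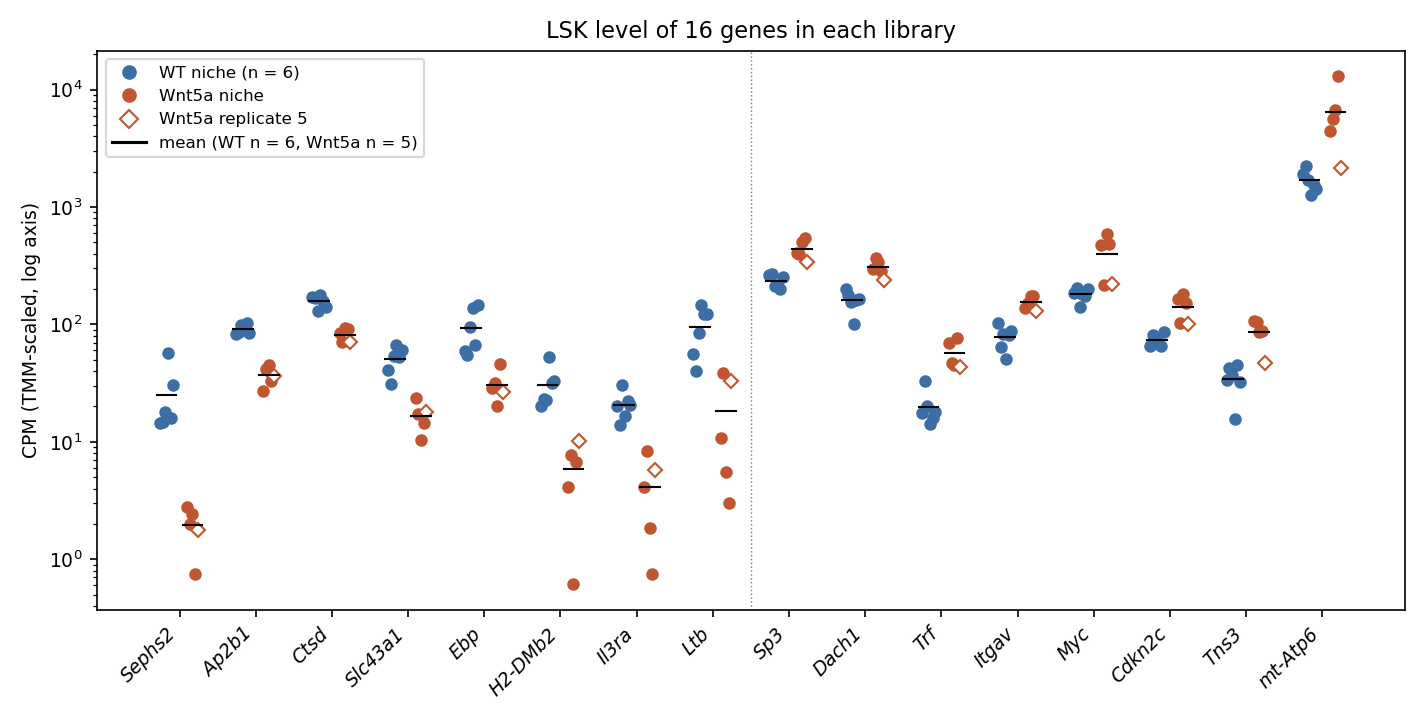
Level of 16 genes in each LSK library in CPM on a log axis, with WT in blue, Wnt5a in orange, Wnt5a replicate 5 as an open diamond and the group mean as a bar. Genes left of the dotted line are lower and those right of it higher in Wnt5a; replicate 5 sits with the other Wnt5a libraries in Ap2b1 and Ctsd and at the level of WT in mt-Atp6.

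Genes of the mitochondrial genome, which encode subunits of the respiratory chain and ATP synthase, filled the rest of the higher genes. All 13 protein genes had a positive log2 fold change, with a median of 1.63 and a range of 0.70 to 2.12. None passed with all 11 libraries, 13 of 13 had an unadjusted edgeR p under 0.05 (background 10.7%), and 12 passed without replicate 5. Mt-Atp6, a subunit of ATP synthase, stood at 4479, 5635, 6719.9, 13007 and 2148 CPM in Wnt5a against 1277, 1617 and 2246 CPM in WT (log2 fold change 1.93, SE 0.33, edgeR adjusted p = 0.0564). Mt-Nd2, of complex I, stood at 2312, 2169, 2871, 4489 and 788 CPM against 397, 634 and 1041 CPM (1.86, SE 0.35), mt-Nd4 at 2480.0, 4491, 3354, 7874 and 1725 CPM against 958, 1330.1 and 1726 CPM (1.59, SE 0.31), and mt-Nd6 at 1506, 1464, 1933, 2526 and 503 CPM against 262, 393 and 643 CPM (1.85, SE 0.33).

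Replicate 4 was the highest and replicate 5, within the WT range, the lowest in each of these 4 genes. All mitochondrial genes together took 3.35%, 5.89%, 4.09%, 8.96% and 2.54% of reads in Wnt5a and 1.77% to 3.39% in WT. They come from 1 long precursor per strand, so they are not separate observations.

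The nuclear genes of the same complexes differed less. Of 76 tested, 53 were positive with a median log2 fold change of 0.26, and none passed with all libraries. At an unadjusted edgeR p under 0.05, 18 were higher and 3 lower (background 10.7% and 7.7%). Without replicate 5, 4 passed as higher and 2 as lower, near the shares of all genes (4.45% and 3.87%). Ndufa3, of complex I, stood at 179.7, 333, 288, 783 and 254 CPM against 107, 181 and 200 CPM in WT (log2 fold change 1.18, SE 0.31, edgeR adjusted p = 0.0918), with replicate 4 far above the others. Ndufa12, also of complex I, stood at 140.4, 133, 253, 284 and 159 CPM against 106, 117 and 128 CPM (0.72, SE 0.21, adjusted p = 0.109), with no overlap. Glycolysis enzymes were positive in 17 of 22 with a median of 0.20, and none passed with or without replicate 5.

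Over all tested genes, 51.7% were positive with a median of 0.02, 1.26% had groups apart and higher and 1.55% apart and lower, and without replicate 5 4.45% passed as higher and 3.87% as lower. The counts of the lists that follow stand beside these shares, and with all 11 libraries no member of any of them passed the test unless named. Of the stem cell transcription factors, 22 of 30 were positive (median 0.24), and without replicate 5 3 passed as higher and 1 as lower (background 4.45% and 3.87%). Myc, which drives growth and exit from rest, stood at 474, 216, 586, 486 and 221 CPM in Wnt5a against 142, 184 and 203 CPM in WT (log2 fold change 1.13, SE 0.24, edgeR adjusted p = 0.0564). The groups did not overlap, but replicates 2 and 5 were close to WT. Fli1, an ETS factor of stem and megakaryocytic cells, stood at 317, 353, 408, 437 and 289 CPM against 154, 219 and 296 CPM (0.69, SE 0.19, adjusted p = 0.102).

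Among surface receptors and ligands of stem and progenitor cells, 16 of 30 were positive (median 0.02), and 4 had groups apart and lower (Il3ra, Ltb, Esam and Robo4), against 1.55% of all genes. Il3ra, the interleukin-3 receptor alpha chain, stood at 4.14, 8.30, 1.83, 0.754 and 5.73 CPM against 13.8, 20.2 and 30.4 CPM (log2 fold change -2.23, SE 0.51, edgeR adjusted p = 0.0608). The fold of Il3ra (12, 29, 3, 1 and 13 reads in Wnt5a) rests in part on libraries with at most 3 reads. Ltb, lymphotoxin beta, stood at 10.7, 38.6, 5.50, 3.02 and 33.1 CPM against 39.8, 103 and 147 CPM (-2.35, SE 0.55, adjusted p = 0.0676). Esam, an adhesion molecule of blood stem cells and endothelium, stood at 43.8, 24.0, 26.3, 28.7 and 46.3 CPM against 50.4, 66.9 and 89.5 CPM (-1.01, SE 0.26, adjusted p = 0.0902). Egfl7, a secreted factor that is also on the endothelial list, stood at 40.4, 51.2, 52.6, 55.1 and 39.2 CPM against 69.9, 89.3 and 142 CPM (-0.98, SE 0.24, adjusted p = 0.0694). The summed endothelial markers given above ran lower in Wnt5a with overlap, at 102 to 175 CPM against 157 to 333 CPM. Egfl7 is part of that sum, so the sum is not a separate observation from it. Of the 7 endothelial markers only 2, Egfl7 and Emcn, reached the test. The part of endothelial RNA in Esam and Egfl7 was not tested.

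Lineage priming genes had members on both sides of 0 in every branch. Of granulocyte and monocyte genes, 13 of 22 were positive (median 0.13), of lymphoid genes 15 of 22 (0.43), and of megakaryocyte and erythroid genes 10 of 19 (0.08). Without replicate 5, which held the most immunoglobulin reads, the lymphoid median was 0.19 and the megakaryocyte and erythroid median -0.18. Mpo, the myeloperoxidase of granulocyte precursors, stood at 382, 283, 382, 447 and 153 CPM in Wnt5a against 108, 161 and 230.0 CPM in WT (log2 fold change 1.05, SE 0.25, edgeR adjusted p = 0.0676). Irf8, which directs monocyte and dendritic fate, stood at 50.4, 45.2, 58.7, 34.7 and 19.4 CPM against 5.60, 18 and 20.1 CPM (1.45, SE 0.38, adjusted p = 0.0904). Calr, a general calcium-binding chaperone counted on the granulocyte and monocyte list, stood at 540.4, 353, 550.1, 472 and 265 CPM against 214, 239 and 259.6 CPM (0.88, SE 0.19, adjusted p = 0.0564). In Mpo and Irf8 the first 4 Wnt5a libraries were above all of WT and replicate 5 inside. Without replicate 5, 4 genes on the granulocyte and monocyte list passed as higher, Calr among them, and 2 as lower, Elane and Fcgr3 (background 4.45% and 3.87%). The neutrophil markers were higher in sum in Wnt5a as well (30.6 to 67.9 CPM, against 7.20 to 39.1 CPM), and their part in these genes was not tested.

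Medians below 0 were found for antigen presentation genes. Of 10 tested MHC class II genes, 4 were positive, with a median of -0.36, and 2 had groups apart and lower (background 1.55%), H2-DMb2 above and H2-Oa, a chain of its inhibitor. H2-Oa stood at 11.7, 17.2, 18.9, 8.30 and 21.2 CPM against 22.5, 38.7 and 68.5 CPM (log2 fold change -1.41, SE 0.39, edgeR adjusted p = 0.0977). Of 14 MHC class I genes 6 were positive (median -0.19), and of 31 interferon response genes 18 (median 0.03).

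For the cell cycle, 25 of 40 genes of mitosis and cytokinesis were positive (median 0.19), and 22 of 40 of DNA replication (0.05). Without replicate 5, 4 mitotic genes passed as higher and none as lower (background 4.45% and 3.87%). Top2a, the topoisomerase that separates replicated chromosomes, stood at 532, 474, 504, 422 and 353 CPM against 277, 344 and 395 CPM (log2 fold change 0.43, SE 0.15, edgeR adjusted p = 0.167). Gins2, part of the replicative helicase, stood at 6.55, 11.2, 12.2, 15.8 and 19.4 CPM against 21.3, 29.8 and 76.3 CPM (-1.52, SE 0.40, adjusted p = 0.0904), but 2758 of its exonic bases overlap Gse1 on the other strand.

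Of 20 inhibitors of the cycle and genes of the resting state, 10 were positive. Cdkn2c, the CDK4 and CDK6 inhibitor p18, stood at 164, 103, 182, 151 and 100.1 CPM against 65.6, 71.5 and 86.9 CPM (log2 fold change 0.92, SE 0.20, edgeR adjusted p = 0.0571). Cdkn2d, the related inhibitor p19, stood at 17.2, 26.1, 26.3, 15.8 and 34.4 CPM against 38.4, 44.6 and 92.7 CPM (-1.11, SE 0.31, adjusted p = 0.0992). Rbl2, the pocket protein p130 of resting cells, stood at 28.6, 50.7, 17.1, 19.6 and 77.6 CPM against 80.8, 91.6 and 120.0 CPM (-1.29, SE 0.34, adjusted p = 0.0904). In these 3 genes the groups did not overlap, in opposite directions for the related inhibitors.

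The pathways of the called genes had medians near that of all genes. Of 25 tested genes of selenoprotein synthesis and selenoproteins, 9 were positive with a median of -0.09, and Sephs2 was the only member called, with or without replicate 5. Of 32 clathrin endocytosis genes, 16 were positive with a median of -0.01, and Ap2b1 was the only member called with 11 libraries; without replicate 5 Gak, a kinase of clathrin uncoating, passed as higher too. Ap2a1, an alpha subunit of the same adaptor, stood at 1.03, 0.286, 3.06, 0.754 and 0.441 CPM in Wnt5a and at 2.81, 4.16 and 8.76 CPM in WT (edgeR adjusted p = 0.121), too low for a fold. Of 27 autophagy and lysosome genes, 12 were positive with a median of -0.18. Without replicate 5, 0 of them passed edgeR's test as higher and 5 as lower, Ctsd among them (background 4.45% and 3.87%), and 4 as lower within the 4-digit series (background 3.29%).

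For actin regulation, the theme of the title, 16 of 25 genes of actin, monomer binding and severing were positive (median 0.32), 5 of 9 Arp2/3 subunits (0.14), 13 of 20 WAVE and WASP promoters of nucleation (0.12), 7 of 10 formins (0.12) and 12 of 24 cross-linkers and myosins (0.02). Without replicate 5, calls in these lists went both ways (background 4.45% higher and 3.87% lower). In the order above, 1, 0, 2, 0 and 3 genes passed as higher and 1, 1, 2, 0 and 1 as lower. The Arp2/3 subunit was Arpc3 (log2 fold change -1.03, edgeR adjusted p = 0.0435). With all 11 libraries Arpc3 was at -0.77 (adjusted p = 0.197). Actb, cytoplasmic beta-actin, stood at 1889, 1839, 1752, 1777 and 1591 CPM in Wnt5a against 993, 1273 and 1560.2 CPM in WT (log2 fold change 0.48, SE 0.15, edgeR adjusted p = 0.128), with no overlap. Of 12 membrane skeleton and ERM genes, 9 were positive (median 0.51), and without replicate 5 2 passed as higher and 0 as lower. Epb41l3, a member of the protein 4.1 family that anchors actin to membrane, stood at 161, 133, 146, 152 and 17.6 CPM against 33.1, 36.8 and 52.4 CPM (1.65, SE 0.38, adjusted p = 0.0620). Slc9a3r1, the scaffold EBP50, stood at 165, 179.8, 212, 175 and 96.1 CPM against 54.7, 80.0 and 129 CPM (0.94, SE 0.24, adjusted p = 0.0866). In Epb41l3, replicate 5 was below every WT library while the other 4 were above all of them, and the adjusted p was 0.000684 without it.

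Among regulators of small GTPases, the exchange factor beta-PIX, encoded by Arhgef7, stood at 121, 80.2, 137, 154 and 41.4 CPM against 29.9, 40.3 and 59.9 CPM (log2 fold change 1.35, SE 0.30, edgeR adjusted p = 0.0607). Arhgap11a, a GTPase-activating protein of dividing cells, stood at 172, 136, 172, 103 and 51.1 CPM against 37.7, 47.8 and 68.7 CPM (1.34, SE 0.29, adjusted p = 0.0564). Arhgap18 was on the other side, at 86.9, 113, 92.9, 97.3 and 109 CPM against 134, 152 and 168 CPM (-0.59, SE 0.16, adjusted p = 0.0964).

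Of 22 focal adhesion adaptors and kinases, 19 were positive (median 0.45, against 51.7% and 0.02 over all genes), and 2 had groups apart and higher (background 1.26%). Tns3, tensin 3, stood at 108, 105, 86.8, 88.2 and 46.7 CPM against 15.5, 35.3 and 45.4 CPM (log2 fold change 1.34, SE 0.29, edgeR adjusted p = 0.0564). Rap1a, the GTPase that activates integrins, stood at 206, 218, 211, 235 and 235 CPM against 128, 164 and 177 CPM (0.47, SE 0.15, adjusted p = 0.128). Of 16 integrin chains 12 were positive (median 0.10), and Itgav, the alpha V chain, stood at 138, 151, 174, 175 and 130.0 CPM against 50.7, 81.9 and 103 CPM (0.98, SE 0.20, adjusted p = 0.0564), with no overlap.

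WNT5A receptors and polarity genes were positive in 12 of 19 (median 0.21), genes of the calcium branch in 16 of 26 (0.11) and canonical WNT genes in 14 of 18 (0.26). The first 2 of these lists had no member past the test with or without replicate 5, and the canonical list had 1 without it, Myc. Chromatin repressors of repeats were positive in 16 of 19 (median 0.34). Among them Dnmt1, the maintenance DNA methyltransferase, stood at 416, 259.7, 348, 327 and 166 CPM against 104, 155 and 189.7 CPM in WT (log2 fold change 0.99, SE 0.23, edgeR adjusted p = 0.0608). Cbx1, the heterochromatin protein HP1 beta, stood at 183, 225, 327, 267 and 139 CPM against 112, 135 and 157 CPM (0.72, SE 0.20, adjusted p = 0.102). Both were above WT in Wnt5a replicates 1 to 4 and inside it in replicate 5, as were the satellite transcripts by share of reads.

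**Figure D5:**
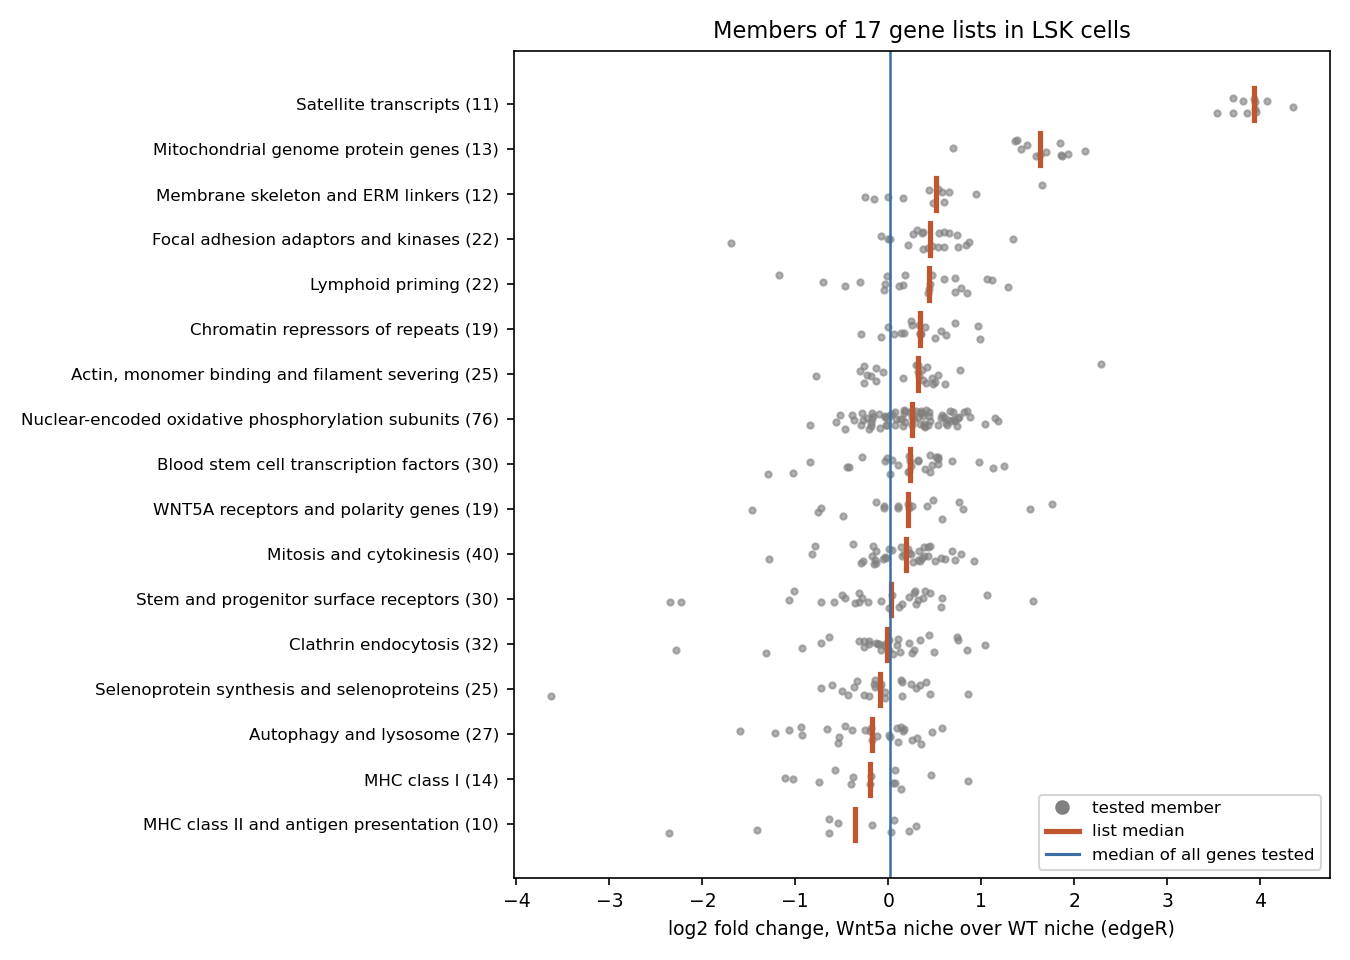
Log2 fold change (Wnt5a over WT, edgeR, 11 libraries) of each tested member of 17 gene lists, with the list's median as an orange bar and the median of all 13098 tested genes (0.02) as a blue line; the number of tested members is in brackets. Satellite transcripts (median 3.93) and mitochondrial genome protein genes (1.63) stand apart from the other lists, whose medians lie between -0.36 and 0.51.

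Transcripts whose groups did not overlap also differed in make-up. The 165 higher genes had a median GC content of 46.2% and a median transcript length of 2999 bases, and the 203 lower genes 52.6% and 2165 bases, beside 49.4% and 2770 bases over all tested genes. Genes called without Wnt5a replicate 5 showed no such order in GC content, with medians of 49.3% in higher and 48.3% in lower genes (588 and 503 genes also tested with 11 libraries), while their lengths were 2990 and 2029 bases. The median level of genes whose groups did not overlap was 82.2 CPM for higher and 29.0 CPM for lower genes, against 43.0 CPM over all tested genes. For genes called without Wnt5a replicate 5 it was 82.3 and 39.7 CPM. Within libraries, the level of the fifth of genes richest in GC relative to the poorest ranged from -0.34 to 0.36 on the log2 scale in WT and stood at 0.46, -0.17, 0.20, -0.02 and -0.40 in the Wnt5a libraries, and the values of the groups overlapped. The same difference by transcript length, the longest relative to the shortest, ranged from -0.45 to 0.15 in WT and was 0.69, 0.45, 0.07, -0.60 and -0.17 in Wnt5a, so Wnt5a replicates 1, 2 and 4 lay outside the WT range, in both directions. The part of these trends in the results was not tested for length. With each library's own GC trend taken out, edgeR called 0 genes (1459 higher and 1047 lower at an unadjusted p under 0.05), with Ap2b1 at an adjusted p of 0.0667 and Sephs2 at 0.0551.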

How the data were processed

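The authors deposited unnormalised read counts for each Ensembl gene of the LSK libraries, made with STAR and featureCounts on mm10 (GRCm38), per the submitters' processing notes, which give no versions. The annotation release and the use of strand were not given in the sources used here. Exons of further named genes overlap other genes as well, and not every overlap is printed. Of 38924 genes, 8511 were at 0 in every library. Symbols and positions were matched for 37607 IDs (GENCODE M21); no column was left out.

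The counts of 11 LSK libraries were scaled by TMM, filtered with filterByExpr (at least 10 counts, at least 15 in total) and tested by the robust quasi-likelihood method of edgeR 4.0.16 under R 4.3.3, with Benjamini-Hochberg adjustment over 13098 genes. CPM use TMM-scaled totals. Log2 fold changes are Wnt5a over WT, each with its standard error (SE). Adjusted p-values are edgeR's unless another tool is named. DESeq2 1.42.0 and voom of limma 3.58.1 were alternatives. The fit was tested on simulated data. Floors were taken as 3 counts.

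The comparison, the 47 gene lists and the named genes were chosen with earlier results of these data known. Named were Wnt5a, the genes past the test, the 12 higher and 12 lower protein-coding genes with the smallest p, up to 3 members per list by smallest p, the sort markers, the most abundant marker of each cell type, and 8 genes in each direction from the fit without Wnt5a replicate 5; the text leaves some out, and a few results are not reported here. List members named only for passing without replicate 5 or for groups that were apart (Robo4, Elane, Fcgr3) were chosen after their values were seen. Transcript GC content and length come from GENCODE, and promoter sequences from RefSeq (GRCm38.p6). Alternatives left out each library, changed the scaling, filter, tool and features, or used the label series. The GC offset and the threshold of 0.1 were added after seeing the data.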

Additional observations from a re-analysis of the deposited data

Results flagged for a closer look

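In groups of 5 and 6 libraries, a single library stood far from the others, relative to the group's whole range, in 12 of 138 group values examined. Chance alone gives about 1 in 20 if values are normally distributed. The values here are unlogged CPM and shares, many of the genes were chosen by their values, and the 12 values are not independent. The count of 12 is therefore not read as an excess. Wnt5a replicate 5 was that library in 7 of the 12.

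In replicate 5, Ly6a was at 696 CPM with the next Wnt5a library at 266 CPM, Jchain at 21136 against 4344 CPM, and the immunoglobulin share at 8.27% against 0.971%. Copz1, a subunit of the COPI coat of Golgi vesicles, was at 352 CPM there and next at 123 CPM, Nudt19 at 139.7 and 49.7 CPM, and Xpo4, a nuclear export receptor, at 52.9 and 12 CPM. Epb41l3 was at 17.6 CPM there, with the next lowest Wnt5a library at 133 CPM. These last 4 genes were named from the fit without replicate 5, in which the first 3 were lower and Epb41l3 higher in Wnt5a, so their distance follows in part from that choice.

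In Wnt5a replicate 4, Smim27 was at 557 CPM with the next at 196 CPM and Ndufa3 at 783 CPM with the next at 333 CPM. Among WT libraries, Trf was at 32.7 CPM in replicate 2 (next 20.3 CPM), Cdkn2d at 92.7 CPM in replicate 4 (next 47.5 CPM), and the haemoglobin share at 0.0256% in replicate 6 (next 0.0579%).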

How the results depend on the processing

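Leaving out each library in turn gave 0 to 596 genes higher and 0 to 518 lower, in place of 1 and 2. Higher and lower counts were 207 and 136 with no filter on low counts, 405 and 274 with DESeq2, 68 and 22 with voom and quality weights, 20 and 5 without the robust estimate, 425 and 457 within 4-digit label numbers, 155 and 159 with the label series as a term, and 209 and 110 at an adjusted p under 0.1. They were 0 and 0 with voom (1354 and 1517 at an unadjusted p under 0.05), without satellite, olfactory receptor and mitochondrial genes (1330 and 1055) and with the GC offset (1459 and 1047). The cause was not tested. DESeq2 scaling in edgeR gave 1 and 2. Of the other alternatives, those without WT replicate 5 and without Wnt5a replicate 1 were the only ones that left out a library other than Wnt5a replicate 5 and kept a call, with 1 and 1, and 13 and 3.

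Ly6a turned negative with no filter (0.00 to 2 decimals), voom (-0.15), voom with weights (-0.32), the 4-digit numbers (-0.63), the series term (-0.62), and when a library was left out (-0.50 to 0.20). Jchain turned to -0.79 and -0.78 with the 4-digit numbers and the series term, and ran from -0.12 (without Wnt5a replicate 5) to 1.67 when a library was left out. Of the other values of 62 genes, none changed sign.

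Medians were examined for the 47 lists and gene families with at least 5 tested members, a different set from the 47 gene lists above. The median was positive in 38 of them, and in 32 to 40 under the alternatives run. List medians stayed within their spread in 643 of 658 cases. No paired analysis was possible because LSK labels carry no shared replicate numbers. The depth of at most 5775459 reads limits genes of a few reads, such as Wnt5a, Layn and Cars2.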
